A study of Homo sapiens with 6 samples.

Results

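The genes of cholesterol and fatty acid synthesis were examined in T47D, a long-established human breast cancer cell line of luminal A type, after knockdown of ELF5, a transcription factor of the ETS family active in luminal progenitors of the mammary gland. The 46 members were taken by gene symbol from a table of 26364 genes, and all 46 were found. They comprise 19 genes of the sterol arm (18 enzymes and the sterol carrier gene STARD4), 5 genes that control SREBP, and 22 genes of the fatty acid arm. A control siRNA (siNC) was given to 3 samples and an siRNA against ELF5 (siELF5) to the other 3, and total RNA was taken 48 h after transfection. Both siRNAs were Ambion products with different catalogue numbers, each group received a single siRNA, and the cells carried no other stated change. All libraries came from this 1 cell line, and whether replicates were separate cultures is not stated, so p-values here measure only how far these libraries spread, which may be technical.

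Sterols and fatty acids are both built from cytosolic acetyl-CoA. The sterol route condenses it to mevalonate, joins isoprenoid units to squalene, closes the rings to lanosterol and trims lanosterol to cholesterol, while the fatty acid route carboxylates it to malonyl-CoA, which fatty acid synthase extends before desaturases and elongases modify the chain. Both routes are driven by SREBP transcription factors, which SCAP escorts from the endoplasmic reticulum to the Golgi for cleavage when sterols are low and which INSIG proteins hold back when sterols are high. Breast cancer cells make much of their own lipid, and lipid synthesis is also a specialised function of the lactating mammary epithelium from which ELF5 is known.

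The libraries held 66810743 to 83680984 reads assigned to genes, so counting error was small for all but the lowest members. ELF5 itself stood at 13094.5 ± 164 (SD, n = 3) normalised read counts in siNC and at 3680 ± 43.7 (SD, n = 3) in siELF5, which is 28.1% of the siNC mean. Markers of the luminal epithelium were high in every library. Over 9 genes they summed to between 731642 and 778670 normalised read counts in siNC and between 677548 and 700684 in siELF5. ESR1, PGR, GATA3 and FOXA1 rose, KRT8 and KRT18 fell, and KRT19, EPCAM and CDH1 were not called. The 5 hepatocyte markers summed to at most 20.5 in any library, and PLIN4 made up most of the adipocyte list, which summed to between 159.8 and 209.3 in siNC and between 407.2 and 524.8 in siELF5 over 6 genes. ADIPOQ stood at 32.39 to 51.35 without a call, PLIN1 and CIDEC at no more than 14.38, and LEP and FABP4 at no more than 2.05. The 5 fibroblast markers summed to between 4222.4 and 5405.55 in siNC and between 3376.13 and 3888.23 in siELF5, nearly all of it COL1A1. COL1A1 and LUM both fell, while COL1A2, COL3A1 and DCN stood at no more than 14.76. PTPRC, the common leukocyte marker, stood at no more than 3.04. The part of these markers in the results was not tested, and in bulk RNA fewer cells of a type and less RNA per cell cannot be told apart. The level of GC-rich genes as a whole differed between libraries, within siNC as well as between the groups. A GC score per library, the median deviation of the 10% of genes richest in GC minus that of a middle 10%, was -0.40, -0.22 and -0.07 in siNC replicates 1, 2 and 3 and 0.22, 0.28 and 0.22 in siELF5 replicates 1, 2 and 3 on the log2 scale. The score does not overlap between the groups, so it and the siRNA cannot be told apart.

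Lipid synthesis genes changed by small amounts and in both directions. Of the 46 members, 45 had a mean of at least 10 normalised read counts and were tested, and ACSL5, a long-chain acyl-CoA synthetase with at most 11.8 in any library, was not. In siELF5, 16 members rose and 11 fell (limma adjusted p under 0.05). These are 35.6% and 24.4% of the members tested, where 23.8% of all genes tested rose and 23.3% fell. With every library scaled to an equal total, 20 members rose and 7 fell, beside 4381 and 3133 of all 16032 genes tested. Called in either direction were 60% of the members, beside 47.1% of all genes. The groups did not overlap in 30 members (66.7%), against 55.9% of all genes. Fold changes were below 1.5 for 41 of the 45, and for 13862 of all 16032 genes tested. Leaving out siELF5 replicate 1 lowered the number of members that fell from 11 to 7, and that of all genes from 3741 to 3250. Over the 6 fits that each left out 1 library, 14 to 17 members and 3138 to 3755 of all genes tested rose. By the authors' deposited table, 16 of the 46 members rose and 9 fell, beside 3562 and 3541 of 17294 genes with an adjusted p.

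**Figure D1:**
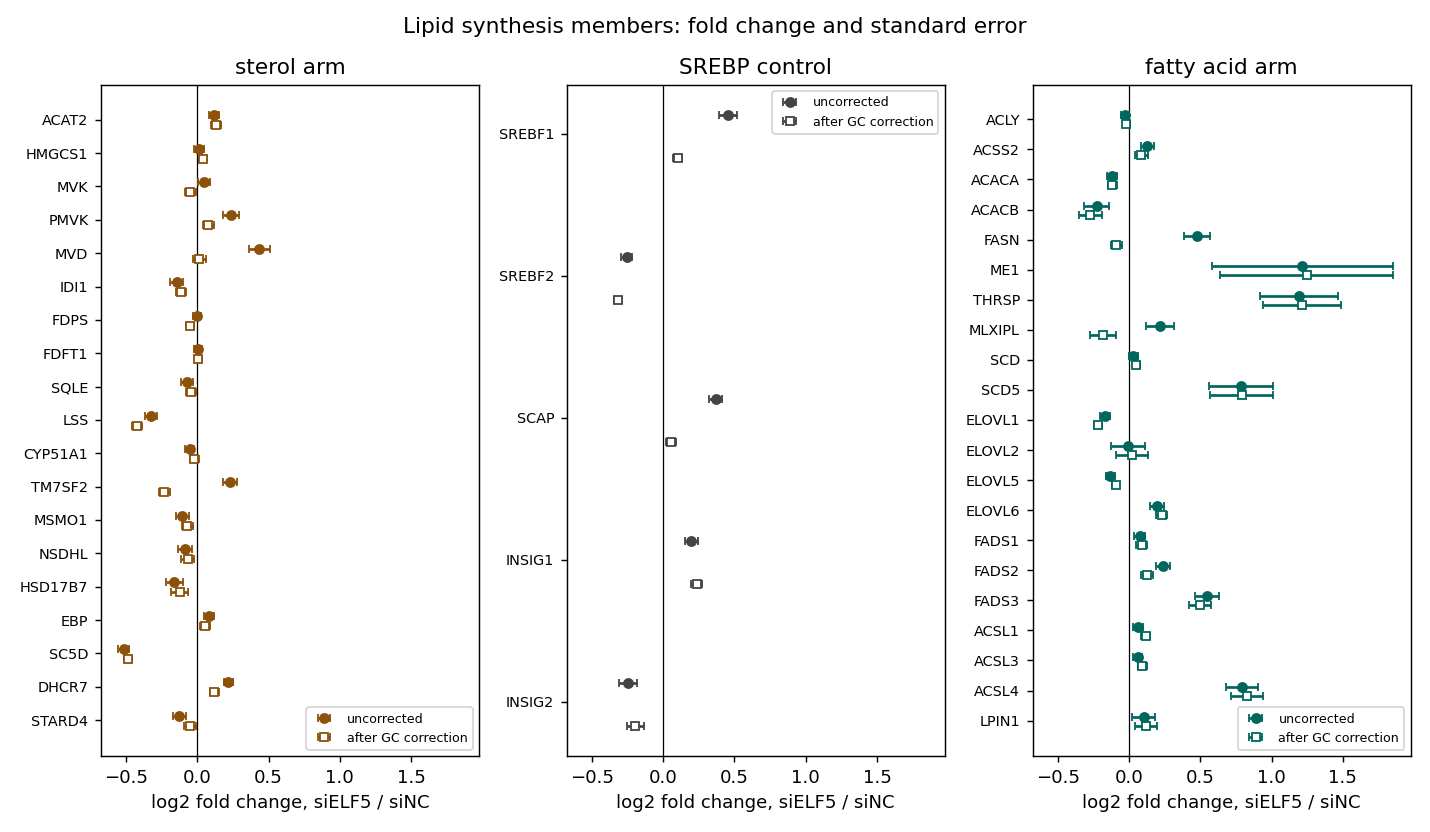
Log2 fold change of siELF5 over siNC for the 45 tested members, in pathway order from top to bottom within the sterol arm, the SREBP control genes and the fatty acid arm. Filled circles are uncorrected values, open squares are values after the per-library GC correction, and bars are standard errors from limma. SC5D lies farthest to the left at -0.52, and FASN, TM7SF2, MVD, MLXIPL and SREBF1 have the widest gaps between their 2 symbols.

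All 5 genes that control SREBP were called, 3 upward and 2 downward, where 23.8% of all genes tested rose and 23.3% fell. Each pair of paralogs split. After the per-library GC correction described below 4 of the 5 were called, after a robust form of it 5, and with the GC score as a covariate 1. SREBF1 encodes SREBP-1a and SREBP-1c, of which SREBP-1c favours fatty acid genes. It had 5216, 6036 and 6456 normalised read counts in siNC replicates 1, 2 and 3 and 7838, 8185 and 8172 in siELF5. All siELF5 values were above all siNC values, but siNC replicate 1 lay well below the other controls. SREBF1 rose by 0.46 on the log2 scale (SE 0.06, limma adjusted p = 6.28e-05). SREBF2, which encodes SREBP-2, the form that favours sterol genes, had 11716, 12203 and 12023 in siNC and 10048, 9581 and 10501 in siELF5. It fell to 83.8% of the siNC mean, a log2 fold change of -0.26 (limma SE 0.04, adjusted p = 0.000127), and the groups did not overlap.

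INSIG1, the retention protein gene that is itself an SREBP target, had 4809.99, 4384 and 4458 normalised read counts in siNC and 5404, 5166 and 5071 in siELF5. It rose by 0.20 on the log2 scale (SE 0.04, limma adjusted p = 0.00275). INSIG2, its constitutively expressed relative, had 1467, 1461 and 1523 in siNC and 1188, 1359 and 1202 in siELF5. It fell by 0.25 on the log2 scale (SE 0.06, limma adjusted p = 0.00573). SCAP, the escort protein gene, had 3614, 3982 and 3999.8 in siNC and 4938, 4949.5 and 5069 in siELF5, a rise of 0.37 on the log2 scale (SE 0.04, limma adjusted p = 2.84e-05). In none of these 3 genes did the groups overlap.

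The counts of the paralogs were also set against each other within each library, which cancels the scaling of the library. The ratio of SREBF1 to SREBF2 counts was 0.49 ± 0.05 (SD, n = 3) in the siNC libraries and 0.80 ± 0.04 (SD, n = 3) in the siELF5 libraries. The ratio of INSIG1 to INSIG2 counts was 3.07 ± 0.19 (SD, n = 3) in the siNC libraries and 4.19 ± 0.37 (SD, n = 3) in the siELF5 libraries. For both ratios the groups did not overlap, with a two-sided exact permutation p of 0.1, the smallest that 3 against 3 allows. Of 6 such ratios, chosen after the values were seen, 5 reached it (Benjamini-Hochberg adjusted p = 0.12). The 2 genes in each ratio differ in GC content, at 62.8% for SREBF1 and 57.1% for SREBF2 and at 46% for INSIG1 and 35.4% for INSIG2.

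**Figure D2:**
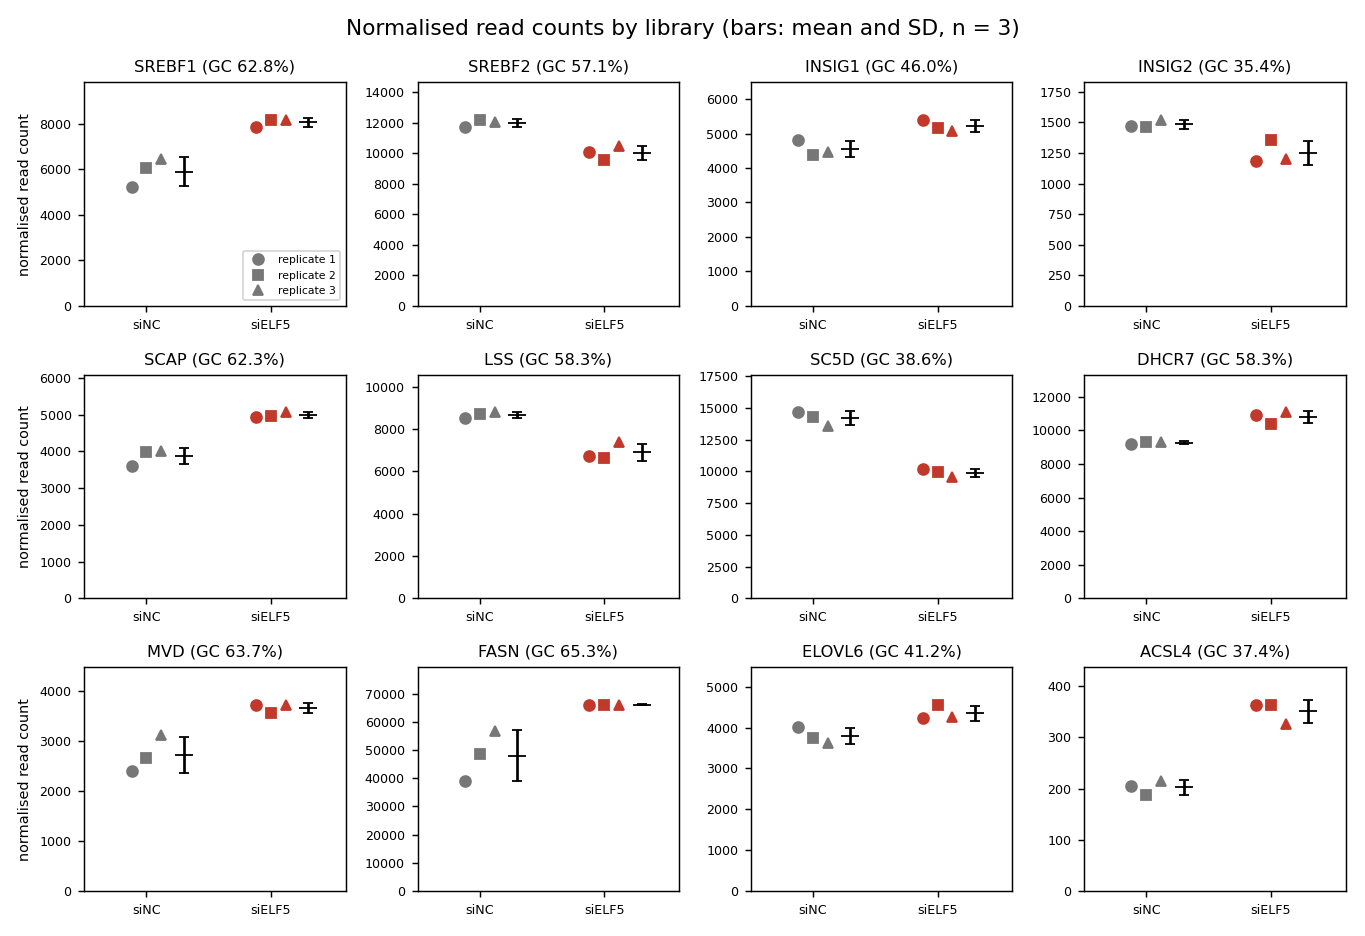
Normalised read counts of 12 members in each library, with siNC in grey, siELF5 in red, a symbol for each replicate number, and bars for the mean and SD (n = 3). FASN ranges from 38920 to 56767 in siNC and from 65833 to 66137 in siELF5, whereas SC5D and LSS are tight within each group and lower in siELF5.

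The promoters of 42 members, 250 bases before to 50 bases after the start, were matched by symbol in the RefSeq table of GRCh38.p14, which held no entry for ACAT2, FASN, FDFT1 and SQLE. Each was searched on both strands for letters known from SREBP-driven promoters. CCAAT, the letters bound by NF-Y, a usual partner of SREBP, stood in 13 of 16 sterol arm promoters (81.2%), in 9 of 21 fatty acid arm promoters (42.9%) and in 35.7% of all 27305 promoters (36.3% of the 16183 promoters of genes in the series table). GGGCGG, the letters bound by Sp1, stood in 36 of 42 member promoters (85.7%), in 44.6% of all and in 56.1% of those of genes in the table. TCACNCCAC, a sterol regulatory element, stood in 1 member promoter, that of SREBF2, in 1.15% of all and in 1.14% of those in the table. CACGTG, an E-box, stood in 5 (11.9%), in 7.43% of all and in 8.62% of those in the table. CCGGAA, the core letters of many ETS sites, stood in 7 (16.7%), in 17.6% of all and in 21.9% of those in the table. The 7 are ACSL4, CYP51A1, FDPS, IDI1, INSIG2, STARD4 and TM7SF2. None of the 5 sets of letters is contained in another. CCAAT was carried by 8 of 14 matched members that rose (57.1%), 7 of 11 that fell (63.6%) and 9 of 17 not called (52.9%). These matches are letters in a window and no evidence of binding.

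Shown are 4 of these promoters, because SREBF2 alone holds the sterol regulatory element letters and moved opposite to INSIG1, and because SC5D and DHCR7 act next to each other and also moved oppositely. They lie at chr22:41832855-41833154 (plus strand, SREBF2), chr7:155297628-155297927 (plus strand, INSIG1), chr11:121292521-121292820 (plus strand, SC5D) and chr11:71448344-71448643 (minus strand, DHCR7) in GRCh38.p14, and each is given 5′ to 3′ on the strand of its gene. Capitals mark CCAAT or its complement ATTGG, and in SREBF2 also the 9-letter element. The element of SREBF2 begins 133 bases before the start and its CCAAT letters 106 bases before it, while the CCAAT letters begin 170 bases before the start in INSIG1, 56 in SC5D, and 94 and 48 in DHCR7.
SREBF2: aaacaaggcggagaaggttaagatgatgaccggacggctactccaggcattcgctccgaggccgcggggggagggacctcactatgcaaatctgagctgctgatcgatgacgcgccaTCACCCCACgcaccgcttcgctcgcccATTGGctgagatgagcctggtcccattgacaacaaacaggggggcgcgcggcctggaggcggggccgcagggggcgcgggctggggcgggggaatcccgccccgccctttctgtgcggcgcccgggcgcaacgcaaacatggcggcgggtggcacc
INSIG1: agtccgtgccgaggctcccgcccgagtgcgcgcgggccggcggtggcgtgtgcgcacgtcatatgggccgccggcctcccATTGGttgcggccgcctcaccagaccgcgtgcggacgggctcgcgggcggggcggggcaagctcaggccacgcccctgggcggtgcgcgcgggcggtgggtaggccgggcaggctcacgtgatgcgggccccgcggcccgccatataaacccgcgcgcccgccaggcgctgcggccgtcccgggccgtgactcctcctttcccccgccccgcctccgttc
SC5D: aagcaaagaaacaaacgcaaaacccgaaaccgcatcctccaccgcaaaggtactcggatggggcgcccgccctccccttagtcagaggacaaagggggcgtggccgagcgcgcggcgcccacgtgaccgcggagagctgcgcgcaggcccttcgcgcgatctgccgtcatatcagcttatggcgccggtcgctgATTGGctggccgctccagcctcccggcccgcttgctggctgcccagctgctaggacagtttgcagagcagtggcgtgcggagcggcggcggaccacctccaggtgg
DHCR7: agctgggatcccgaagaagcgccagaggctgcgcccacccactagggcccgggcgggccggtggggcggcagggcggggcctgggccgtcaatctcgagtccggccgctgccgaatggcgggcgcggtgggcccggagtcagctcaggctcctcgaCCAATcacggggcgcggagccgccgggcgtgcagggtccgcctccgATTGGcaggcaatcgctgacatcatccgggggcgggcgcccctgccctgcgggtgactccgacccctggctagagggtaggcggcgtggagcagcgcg

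In the sterol arm 5 genes rose, 5 fell and 9 were not called, beside 23.8% risen and 23.3% fallen of all genes tested. The median log2 fold change was -0.00 beside 0.00 over all genes tested. Several abundant genes of the route, HMGCS1, FDPS, FDFT1 and SQLE, were among those not called. HMGCS1, which makes HMG-CoA, had 15537 ± 529 (SD, n = 3) normalised read counts in siNC and 15660 ± 147 (SD, n = 3) in siELF5, with a log2 fold change of 0.01 (SE 0.03). FDFT1, which makes squalene, stood at 24912 ± 286 (SD, n = 3) and 24970 ± 546 (SD, n = 3), with a log2 fold change of 0.00 (SE 0.03). FDPS, which makes farnesyl diphosphate, had a log2 fold change of -0.00 (SE 0.03), and SQLE, the squalene epoxidase gene and a rate-limiting step, one of -0.07 (SE 0.04, limma adjusted p = 0.154). Over the 9 members not called, which also include MVK, CYP51A1, MSMO1, NSDHL and EBP, log2 fold changes ran from -0.10 for MSMO1 to 0.08 for EBP. The value of FDPS is uncertain, with 8 named pseudogenes and 28.9% of its exon bases shared with RUSC1-AS1 on the opposite strand. CYP51A1 is uncertain too, with 3 named pseudogenes and 4.12% of its exon bases shared with CYP51A1-AS1 on the opposite strand.

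SC5D and LSS fell most. SC5D, the lathosterol oxidase gene near the end of the route, had 14662, 14262 and 13566 normalised read counts in siNC and 10179, 9953 and 9539.8 in siELF5. The groups were far apart, and SC5D fell to 69.8% of the siNC mean (log2 fold change -0.52, SE 0.04, limma adjusted p = 3.34e-07). LSS, lanosterol synthase, which closes the rings, had 8497, 8687 and 8794 in siNC and 6733, 6625 and 7364 in siELF5. It fell to 79.8% of the siNC mean (log2 fold change -0.33, SE 0.04, limma adjusted p = 4.13e-05), also without overlap. Both genes fell in each of the 6 fits that left out 1 library and after both GC adjustments described below.

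DHCR7, the reductase gene that acts on the product of SC5D, moved the other way. It had 9192, 9318 and 9323 normalised read counts in siNC and 10931, 10376 and 11089.6 in siELF5, and rose by 0.22 on the log2 scale (SE 0.03, limma adjusted p = 0.000202). The ratio of SC5D to DHCR7 counts went from 1.53 ± 0.07 (SD, n = 3) in siNC to 0.92 ± 0.05 (SD, n = 3) in siELF5, without overlap (two-sided exact permutation p = 0.1, the smallest possible here). The GC content of the 2 genes differs, at 38.6% for SC5D and 58.3% for DHCR7. After the per-library GC correction described below DHCR7 was at 0.12 (limma adjusted p = 0.00529) and still called. With the GC score as a covariate DHCR7 was at 0.22 (limma adjusted p = 0.168) and not called.

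The other 4 increases were in genes early in the route and in a reductase. MVD, mevalonate diphosphate decarboxylase, had 2402, 2653 and 3114 normalised read counts in siNC and 3725, 3551 and 3709 in siELF5, and rose by 0.43 on the log2 scale (SE 0.07, limma adjusted p = 0.000375). PMVK, phosphomevalonate kinase, had 4980.2, 5627 and 5944 in siNC and 6594, 6509 and 6364 in siELF5, and rose by 0.24 (SE 0.05). TM7SF2, a sterol C14 reductase, had 9319.9, 10324 and 10462 in siNC and 11791, 12470 and 11041 in siELF5, and rose by 0.23 (SE 0.05). For all 3 the lowest control was siNC replicate 1, the library with the lowest GC score, and their GC content is 63.7%, 59.5% and 64.2%. ACAT2, the cytosolic thiolase that starts the route, had 5361, 5110.2 and 5088 in siNC and 5752, 5531 and 5576 in siELF5, a rise of 0.12 (SE 0.04, limma adjusted p = 0.0222) that was called in 3 of the 6 fits that left out a library. In GENCODE 29 exons of other genes, mostly SOD2 on the opposite strand, cover 47.3% of the exon bases of ACAT2, and the kit does not mark strand, so its value is uncertain.

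The other 3 decreases were smaller. IDI1, isopentenyl diphosphate isomerase, had 20179, 18367 and 17817 normalised read counts in siNC and 17067, 17369.5 and 16438 in siELF5. It fell by 0.15 on the log2 scale (SE 0.04, limma adjusted p = 0.0139). IDI2-AS1 on the opposite strand covers 4.73% of the exon bases of IDI1, so its value is uncertain. HSD17B7, a 3-ketosterol reductase, had 1282, 1195 and 1263 in siNC and 1104, 1086 and 1153 in siELF5, and fell by 0.16 (SE 0.06, limma adjusted p = 0.0388). It has 2 named pseudogenes that could share its reads. STARD4, which carries cholesterol between membranes, had 2814, 2810.1 and 2748 in siNC and 2533, 2638 and 2501 in siELF5, and fell by 0.13 (SE 0.04, limma adjusted p = 0.029). The number of sterol arm genes that fell was 3, without HSD17B7 and STARD4, when siNC replicate 1 or siELF5 replicate 1 was left out, and each of these genes was called in 2 of the 6 such fits.

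In the fatty acid arm 8 genes rose, 4 fell and 9 of the 21 tested were not called, and the median log2 fold change was 0.10. Over all genes tested 23.8% rose, 23.3% fell and the median was 0.00. The most abundant genes per transcript length hardly moved. SCD, the main stearoyl-CoA desaturase gene, had the highest level of all members in siNC at 24460 normalised read counts per kilobase, and a log2 fold change of 0.03 (limma SE 0.03, adjusted p = 0.423). ACLY, ATP citrate lyase, the source of cytosolic acetyl-CoA, came next at 12233 per kilobase, with a log2 fold change of -0.03 (limma SE 0.03, adjusted p = 0.473). Neither passed the test, and their groups overlapped.

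FASN, fatty acid synthase, had 38920, 48475 and 56767 normalised read counts in siNC replicates 1, 2 and 3 and 65833, 66102 and 66137 in siELF5. The controls spread over 0.54 on the log2 scale, whereas the 3 siELF5 libraries spread over 0.01. FASN rose by 0.48 on the log2 scale (SE 0.09, limma adjusted p = 0.00103), but the siELF5 mean was only 0.22 above siNC replicate 3. Its GC content, 65.3%, is the highest of all members.

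The 4 largest increases among the members that passed the test were in low genes. THRSP, the Spot 14 gene linked to lipogenesis, had 25.3, 30.4 and 49.6 normalised read counts in siNC and 66.1, 86.4 and 84.2 in siELF5, a rise of 1.19 on the log2 scale (SE 0.27, limma adjusted p = 0.00304). Its exons overlap those of NDUFC2 on the opposite strand over 4.09% of its bases, so its value is uncertain. SCD5, a second desaturase gene, had 46, 55.3 and 73.9 in siNC and 106, 112.8 and 82.2 in siELF5, a rise of 0.78 (SE 0.22, limma adjusted p = 0.0114) that was not called without siELF5 replicate 2 (adjusted p = 0.0544). ACSL4, an acyl-CoA synthetase that prefers arachidonate, had 204.7, 187.2 and 215.6 in siNC and 364.1, 363.1 and 325.6 in siELF5, a rise of 0.79 (SE 0.11, limma adjusted p = 8.75e-05). FADS3, a member of the desaturase cluster, had 460, 500.8 and 494.9 in siNC and 738.1, 656.5 and 734.3 in siELF5, a rise of 0.55 (SE 0.08, limma adjusted p = 0.000145). The groups did not overlap in any of the 4.

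The desaturase and elongase families were mixed. FADS2, which starts the desaturation of essential fatty acids, rose by 0.24 on the log2 scale (SE 0.05), and its neighbour FADS1 had a log2 fold change of 0.07 (SE 0.04) and was not called. ELOVL6, which extends palmitate, rose by 0.20 (SE 0.05). ELOVL1, an elongase of very long chains, had 9236, 9661 and 9593 normalised read counts in siNC and 8520, 8251 and 8560 in siELF5, and fell by 0.17 on the log2 scale (SE 0.03, limma adjusted p = 0.00118). ELOVL5, an elongase of polyunsaturated chains, had 19622, 19036 and 19148 in siNC and 17748, 17942 and 17135 in siELF5, and fell by 0.13 (SE 0.03, limma adjusted p = 0.00355). ELOVL2 had a log2 fold change of -0.01 (SE 0.12).

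Both acetyl-CoA carboxylase genes fell by little. ACACA, the carboxylase that commits carbon to fatty acids, had 27147, 27057 and 26071 normalised read counts in siNC and 24529, 23444.5 and 25902 in siELF5, and fell by 0.12 on the log2 scale (SE 0.04, limma adjusted p = 0.0166). ACACB, the mitochondrial-surface form, had 849.8, 866.9 and 858.2 in siNC and 674.7, 688.9 and 848.3 in siELF5, and fell by 0.23 (SE 0.09, limma adjusted p = 0.0485). ACACB was called in 1 of the 6 fits that left out a library. Without siNC replicate 2, siELF5 replicate 1 or siELF5 replicate 2 neither was called, and the number of fatty acid arm genes that fell was 2. ACSS2, acetyl-CoA synthetase, rose by 0.13 (SE 0.05, limma adjusted p = 0.0367), a call kept in 1 of the 6 fits that left out a library.

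The remaining members of this arm were not called. ACSL1 and ACSL3, which activate long-chain fatty acids, had log2 fold changes of 0.06 each (SE 0.04 and 0.03). LPIN1, a phosphatidate phosphatase gene, had 0.10 (SE 0.08) and MLXIPL, which encodes the glucose-responsive factor ChREBP, 0.22 (SE 0.10, limma adjusted p = 0.0817). ME1, malic enzyme, was too low to judge, with 19.5, 1.84 and 16.2 normalised read counts in siNC and 26.3, 21.6 and 19.5 in siELF5.

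The arms differed little as groups. The median log2 fold change of the sterol arm minus that of the fatty acid arm was -0.11. Measured in each library against the siNC mean, this difference was 0.01, -0.00 and -0.01 in siNC replicates 1, 2 and 3 and -0.11, -0.14 and -0.08 in siELF5. The sterol arm median lay between -0.03 and 0.02 in all 6 libraries. The fatty acid arm median lay between -0.00 and 0.00 in siNC and between 0.09 and 0.12 in siELF5. The arms are lists of genes chosen with earlier results of these data known, so no test was made on their difference.

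**Figure D3:**
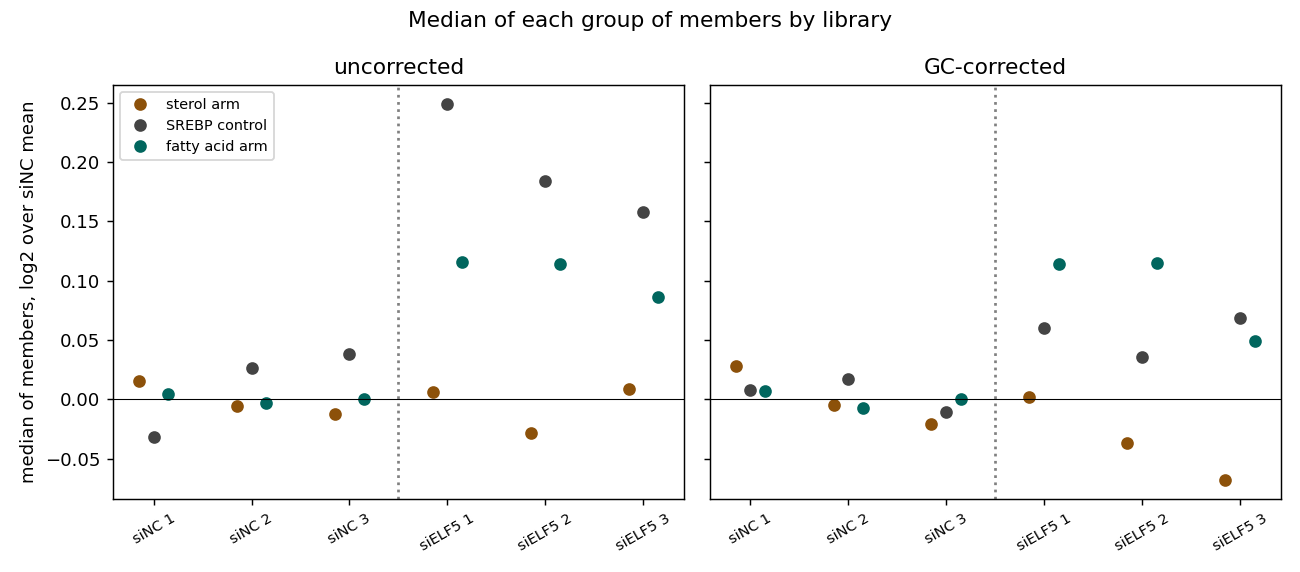
Median over the members of each group in each library, as log2 over the siNC mean of each gene, without (left) and with (right) the per-library GC correction. The sterol arm stays near 0 on the left, and the fatty acid arm lies at 0.09 to 0.12 in the 3 siELF5 libraries. The SREBP control median drops from 0.16 to 0.25 on the left to 0.04 to 0.07 on the right.

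Base composition went with the direction of change among the sterol genes. Transcript GC content of the members ran from 34.2% to 65.3%. Across the 19 sterol arm genes Spearman's rho between GC content and log2 fold change was 0.68, across the 21 fatty acid genes 0.01, and across 14940 tested genes with a known GC content 0.28. All these points share the same 6 libraries and are a description. In the 10% of all genes richest in GC (above 61.7%), 62.2% rose and 3.48% fell, and their median log2 fold change was 0.42. SREBF1, SCAP, MVD, FASN, TM7SF2 and MLXIPL belong to this class, with log2 fold changes from 0.22 for MLXIPL to 0.48 for FASN.

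The same composition separated the control libraries from one another. Across the 45 members Spearman's rho between GC content and the log2 ratio of siNC replicate 3 to siNC replicate 1 was 0.65, and across all genes 0.43. No siELF5 library enters this ratio. Of the 6 members above 60% GC, a limit chosen after the values were seen, 5 were lowest in siNC replicate 1, compared with 11 of the other 39. MVD differed by 0.37, SREBF1 by 0.31 and FASN by 0.54 between these controls on the log2 scale.

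**Figure D4:**
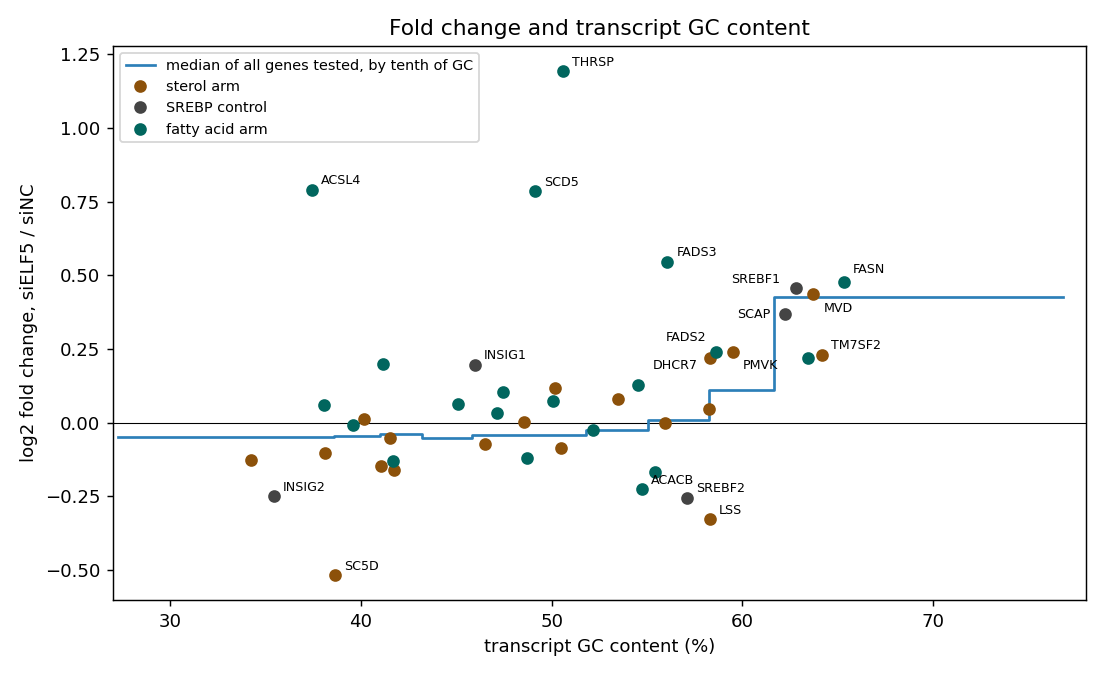
Log2 fold change of siELF5 over siNC against transcript GC content for the members, coloured by group, with the median of all tested genes in each of 10 classes of GC content as a stepped line. ME1 is left out as too low. FASN, MVD, SREBF1 and SCAP lie near the line at 0.42, while SC5D, LSS and SREBF2 lie below it and ACSL4, SCD5 and THRSP above it.

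The fit was repeated after a curve of deviation on GC content was subtracted from each library, which removes a composition bias of the libraries and would equally take out any true change shared by GC-rich genes. Of the members, 12 then rose and 10 fell, beside 21.2% and 27.5% of all genes tested. Of the 27 members called without the correction, 10 rose and 9 fell in both fits. MVD was then at 0.01 (limma adjusted p = 0.809), SCAP at 0.05 (adjusted p = 0.238) and PMVK at 0.08 (adjusted p = 0.107). SREBF1 was at 0.10 (limma adjusted p = 0.0141), and FASN at -0.09 (adjusted p = 0.0557, and 0.0297 with a replicate block, where it fell). TM7SF2 turned from a rise to a fall, at -0.23 (limma adjusted p = 0.000204). ACSL1 and ACSL3 passed upward, at 0.12 and 0.09, and HSD17B7, STARD4 and ACSS2 no longer passed. These outcomes depended on the form of the curve. With a robust curve, added after the data were seen, 18 members rose and 10 fell, beside 3763 and 3920 of all 16032 genes tested. PMVK, SCAP and ACSS2 then kept their calls, while MVD and FASN did not. Of the members called without correction, only TM7SF2 changed sign with the robust curve.

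Several members kept their direction and their call. After the correction SC5D was at -0.49, LSS at -0.43, SREBF2 at -0.32 and INSIG2 at -0.20, and all 4 fell. INSIG1 was at 0.24, ELOVL6 at 0.23, ACSL4 at 0.83 and FADS3 at 0.50, and all 4 rose. The sterol arm median was -0.05 and the fatty acid arm median 0.09, a difference of -0.14.

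When the GC score of each library entered the fit as a covariate, 1 member rose and 3 fell, beside 3.12% and 3.97% of all genes. INSIG1 rose by 0.36 on the log2 scale (SE 0.10, limma adjusted p = 0.0409). SC5D fell by 0.37 (SE 0.09, limma adjusted p = 0.0134), LSS fell by 0.37 (SE 0.10, limma adjusted p = 0.0388), and FASN, which had risen without the covariate, fell by 0.29 (SE 0.08, limma adjusted p = 0.0366). The covariate takes up much of the group difference, and the standard error of SC5D rose from 0.04 to 0.09 with it. SREBF2 kept a log2 fold change of -0.28, with a limma adjusted p of 0.0881.

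The rest of lipid metabolism, in 6 lists, had 88 genes in the table, of which 85 were tested. These also changed in both directions, with 34 genes risen and 22 fallen, beside 23.8% and 23.3% of all genes tested. The same 2 shares stand beside the counts of each list below. In the cleavage and turnover of SREBP 5 of 12 genes rose and 5 fell. MBTPS1, the site-1 protease gene that makes the first cut in SREBP, rose by 0.21 (SE 0.03) and MBTPS2, the site-2 protease gene, fell by 0.13 on the log2 scale (SE 0.03). ERLIN2, an endoplasmic reticulum protein gene tied to INSIG and SREBP control, fell by 0.28 (SE 0.03), and PAQR3, a Golgi anchor of SCAP, fell by 0.43 (SE 0.05). LMNA, a nuclear lamina gene, rose by 0.56 (SE 0.06). Its transcript is 61.5% GC, and its corrected value was 0.29. MBTPS1 and MBTPS2 were chosen after their values were seen.

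In the other branches that leave the mevalonate route 3 of 12 genes rose and 5 fell. RABGGTB, the catalytic subunit gene of Rab geranylgeranyl transferase, had 5247 ± 103 (SD, n = 3) normalised read counts in siNC and 3477 ± 23.8 (SD, n = 3) in siELF5, and fell by 0.59 on the log2 scale (SE 0.04, limma adjusted p = 8.4e-08). RABGGTA, the other subunit, fell by 0.53 (SE 0.07) and PGGT1B, of geranylgeranyl transferase I, by 0.36 (SE 0.04). GGPS1, which makes the geranylgeranyl donor and was chosen after its value was seen, rose by 0.25 (SE 0.04). The number that rose was 1 without siELF5 replicate 1 or siELF5 replicate 2 and 5 without siELF5 replicate 3.

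Among sterol export genes and LXR targets 7 of 14 rose and 2 fell. LIPA, the lysosomal acid lipase gene that frees cholesterol from esters, had 8465 ± 192 (SD, n = 3) normalised read counts in siNC and 5401 ± 84.1 (SD, n = 3) in siELF5, and fell by 0.65 on the log2 scale (SE 0.03, limma adjusted p = 2.3e-08). SOAT1, which forms cholesterol esters, rose by 0.32 (SE 0.04). ABCA7, a lipid transporter gene with a GC content of 64.7%, rose by 0.77 (SE 0.08) and was at 0.26 after the GC correction. After the correction 9 of the 14 rose and 2 fell, beside 21.2% and 27.5% of all genes tested.

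Of 14 tested genes of glycerolipid synthesis and lipid droplets 6 rose and 2 fell. GPAM, the first acyltransferase of triglyceride synthesis, fell by 0.36 (SE 0.04), and AGPAT2, the next acyltransferase, rose by 1.02 (SE 0.14). The AGPAT2 transcript is 65.9% GC, and its corrected value was 0.40. PNPLA2, a triglyceride lipase gene, rose by 0.47 (SE 0.09) and was at -0.01 after the correction. Of this list 1 gene fell when siNC replicate 2, siNC replicate 3, siELF5 replicate 1 or siELF5 replicate 2 was left out. Of 20 fatty acid oxidation genes 7 rose and 4 fell. PPARA, a receptor that drives oxidation genes, had 867 ± 22.4 (SD, n = 3) normalised read counts in siNC and 1345 ± 63.7 (SD, n = 3) in siELF5, and rose by 0.63 (SE 0.06, limma adjusted p = 4.53e-06). HADHB and ACADVL, of the oxidation spiral, rose by 0.24 and 0.22 (SE 0.03 each). The number that fell was 2 without siNC replicate 2 or siELF5 replicate 2.

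Of 13 genes that supply NADPH and acetyl-CoA 6 rose and 4 fell. ACSS1, the mitochondrial acetyl-CoA synthetase gene, fell by 0.58 on the log2 scale (SE 0.06). SLC25A1, the citrate carrier gene, rose by 0.42 on the log2 scale (SE 0.05). The SLC25A1 transcript is 65.6% GC, and after the GC correction the gene fell, with a log2 fold change of -0.17.

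The 3′ UTRs of 37 members were also searched for the 7-base letters CACTAAC and ACTAACA, which an earlier search of these data had found to be frequent in genes that fell. Of 9 searched members that fell, 0 carried either, compared with 589 of 2995 searched genes that fell (19.7%). Of all 37 members 1 carried a match, ELOVL2, compared with 12.6% of all 11562 searched genes. The letters were chosen on these data, so the shares are a description.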

How the data were processed

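RNA of 6 T47D samples was sequenced from TruSeq RNA v2 libraries. The submitters' processing notes name STAR 2.6, featureCounts 1.6.3 of Subread, DESeq2 1.22.1 and hg19, and no source used here states settings, annotation or strand options. The authors deposited 1 table of normalised counts, a signal equal to gene counts divided by 1 size factor per library. Beside them the authors deposited log2 fold changes with standard errors, a score that is their quotient, and p-values. Dividing each deposited value by the value of 1 read gave whole reads for 100% of values (tolerance 1e-06), 66810743 to 83680984 per library.

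Libraries were grouped by treatment label, and columns were matched to samples by group name and number. Here log2(value + 1) was tested with limma 3.58.1 (R 4.3.3) with an intensity trend, for 16032 genes with a mean of at least 10, siELF5 against siNC over all 6 libraries, with Benjamini-Hochberg adjustment over all genes and a threshold of 0.05. Fold changes are on this scale, and those of low genes could lie on either side of the DESeq2 values on recovered reads. THRSP was at 1.19 here and 1.16 with DESeq2, ME1 at 1.22 and 0.86, and ACSL4 at 0.791 and 0.795. Transcript GC content from GENCODE 29 was known for 93.2% of tested genes, and loess curves of span 0.3 gave the per-library GC correction. Alternatives were pseudocounts, filters, scalings, edgeR 4.0.16 and DESeq2 1.42.0 on recovered reads, a replicate block, GC adjustments and each library left out. A robust GC curve was added after seeing the data. The fit was tested on simulated data.

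Named with all values were the 5 SREBP control genes and, in each arm and direction, up to 5 called genes with the largest change and no overlap. From each related list the 3 called genes with the smallest adjusted p were named, except 1 gene that is not reported here. The members and lists were chosen with earlier results of these data known.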

Additional observations from a re-analysis of the deposited data

How the results depend on the processing

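In the 17 settings without a GC adjustment 19 of the 27 called members were called every time, and no called member changed sign. The edgeR quasi-likelihood test called 26 members, beside 7578 of all 16032 genes tested, and DESeq2 25, beside 7059. The same replicate numbers did not pair the samples (correlations of same-numbered deviations 0.015, -0.035 and -0.056). With a replicate block 24 members were called, without HSD17B7, ACSS2 and ACACB, beside 7174 of all genes tested.

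With equal column totals 7 members fell, 3 in the sterol arm and 2 in the fatty acid arm. The arms' median log2 fold changes were then 0.030 and 0.14, beside 0.033 over all genes tested. Quantile scaling gave a sterol arm median of 0.025 and a difference between arms of -0.077. The fatty acid arm median was 0.089 with no filter and with a mean of at least 50, and 2 of its genes fell under limma without a trend. The difference in median change between the GC-richer and GC-poorer members was 0.17. The per-library GC correction, with and without the replicate block, gave 2 sterol arm genes that rose, medians of -0.051, 0.055 and 0.089 for sterol arm, SREBP control and fatty acid arm, a difference between arms of -0.14, a GC difference of -0.022, and reversed values of -0.23 for TM7SF2 and -0.090 for FASN. With the block 23 members were called, beside 7597 of all genes tested, and FASN was called as a fall (limma adjusted p = 0.0297). Without the block 22 members were called, beside 7814 of all genes tested, and FASN was not. The robust curve gave an SREBP control median of 0.14, a GC difference of 0.021 and -0.14 for TM7SF2.

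With the GC score as a covariate 1 member rose and 3 fell. These were 0 and 2 in the sterol arm, 1 and 0 in SREBP control, 0 and 1 in the fatty acid arm, and 4 and 4 in the related lists. The medians were 0.011 for SREBP control and 0.021 for the fatty acid arm, the difference between arms -0.032 and the GC difference -0.13. Reversed values were -0.12 for PMVK, -0.063 for MVD, 0.091 for IDI1, -0.050 for TM7SF2, -0.29 for FASN, -0.17 for THRSP and -0.24 for SCD5. The cause of these moves was not tested.

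Leaving out 1 library at a time gave 14 to 17 members that rose and 7 to 10 that fell. Of all genes tested 3138 to 3755 rose and 2941 to 3609 fell in these fits. In the sterol arm 4 to 5 rose and 3 to 5 fell, with a median of -0.011 to 0.0097. In SREBP control 3 rose and 2 fell each time, with a median of 0.17 to 0.24. In the fatty acid arm 6 to 9 rose and 2 to 4 fell, with a median of 0.077 to 0.12. The difference between arms was -0.12 to -0.084, the GC difference 0.12 to 0.18, and in the related lists 29 to 35 genes rose and 18 to 21 fell.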
